A study of Mus musculus with 8 samples.

Results

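The 10 genes Gfap, Aqp4, Aldh1l1, Slc1a2, Slc1a3, Gja1, Gjb6, S100b, Aldoc and Glul, which serve the main functions of astrocytes, were followed through mRNA and ribosome footprints of mouse brain. They were taken by gene name and make up 10 of the 54532 genes in the deposited count table, each present once. All 10 passed the filters on low values in mRNA, in footprints and in the test of translational efficiency. The tissue was brain, taken under pentobarbital anaesthesia from male mice 3 months old, labelled wild type (WT) or knockout for Nsun5 (KO), and both genotypes came from 1 litter according to the protocol. The Nsun5 protein is a methyltransferase acting on ribosomal RNA. The design asks what its loss does to transcripts and translation in the brain. There were 4 WT and 4 KO footprint libraries, each matched by name with 1 mRNA library. The knockout allele, and which mouse gave which library, are not given in the sources used here. The protocol names 5 mice per genotype, so p-values rest on the spread between libraries and not between known animals. The edgeR tests share information on spread over genes, so they do not reflect a gene's own libraries alone.

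Astrocytes clear glutamate and potassium from the space around synapses, return glutamate to neurons as glutamine, move water at their endfeet on blood vessels and pass ions and metabolites to each other through gap junctions. Slc1a2 (GLT-1) and Slc1a3 (GLAST) are the transporters that take up glutamate, and Glul is glutamine synthetase, which turns it into glutamine. Aqp4 is the water channel of the endfeet, and Gja1 (connexin 43) and Gjb6 (connexin 30) form the gap junctions. Gfap is the intermediate filament protein that astrocytes make more of when they react to injury, and S100b is a calcium-binding protein. Aldoc, aldolase C, is a glycolytic enzyme, and Aldh1l1 is an enzyme of folate metabolism used as a general astrocyte marker. Several are not confined to astrocytes: oligodendrocytes also hold Glul and S100b, and Purkinje cells hold Aldoc.

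In mm10 coordinates, as the count table lists them with Ensembl identifiers, the glutamate genes are Slc1a2 (ENSMUSG00000005089, chromosome 2, 102658659 to 102790784, + strand), Slc1a3 (ENSMUSG00000005360, chromosome 15, 8634124 to 8710764, − strand) and Glul (ENSMUSG00000026473, chromosome 1, 153899944 to 153909723, + strand). The connexin genes are Gja1 (ENSMUSG00000050953, chromosome 10, 56377330 to 56402513, + strand) and Gjb6 (ENSMUSG00000040055, chromosome 14, 57123303 to 57133611, − strand). Gfap (ENSMUSG00000020932, chromosome 11, 102887336 to 102900912, − strand) and Aldoc (ENSMUSG00000017390, chromosome 11, 78322968 to 78327781, + strand) lie on 1 chromosome, as do S100b (ENSMUSG00000033208, chromosome 10, 76253853 to 76261159, + strand) and Gja1. Aldh1l1 (ENSMUSG00000030088, chromosome 6, 90486427 to 90600203, + strand) and Aqp4 (ENSMUSG00000024411) complete the set. Reads were summed over gene models of 1484 bases for S100b to 13133 bases for Slc1a2.

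The mRNA libraries held 15642086 to 17829523 gene-assigned reads and the footprint libraries 586392 to 3493841, with KO footprint libraries the shallower group. Of these reads the 10 genes took 0.498% to 0.625% in mRNA, and 0.701% to 0.813% of the footprint reads on protein-coding genes. Nsun5 itself had 82 to 109 mRNA reads in WT and 83 to 124 in KO (log2 fold change 0.12 ± 0.15, SE, n = 4 each, edgeR adjusted p = 0.820), so WT and KO stand throughout for the libraries labelled so. WT libraries 1 and 2 stood apart in mRNA, at −28.4 and −27.0 on the first principal component against 5.80 to 15.9 for the other 6 (29.9% of the variance). In footprints KO libraries 3 and 1 stood apart, at −52.0 and 36.5 against −10.2 to 9.41 for the other 6 (25.6% of the variance). None of the 10 genes was called without either of them. The median footprint change of the 10 was −0.09 over all libraries, −0.07 without KO library 1 and −0.08 without KO library 3. Its sign turned without WT library 3, where it was 0.055. Among markers of brain regions, the cerebellar Pcp2 and Gabra6 had 31 and 34 mRNA reads over all 8 libraries. The rest of that list had more, with 130 for Cbln3, 907 for Gdf10, 1972 for Cbln1 and 4720 for Zic1. Summed hypothalamic markers were 4.42 to 137 CPM (counts scaled to a common library size) in WT and 3.06 to 12.4 in KO in mRNA, but 5.16 to 69.3 and 65.8 to 116 in footprints. The mRNA and footprint libraries of 1 name thus differed in this marker sum. Over genes, their deviations from the group means correlated at r = −0.10 to 0.17, and whether they came from 1 piece of tissue is not given in the sources used here.

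Glul, Aldoc and Slc1a2 stood highest. RPKM (reads per kilobase of gene and per library size, as the authors scaled them) compares levels between genes. Glul had 399.7 ± 69.4 RPKM of mRNA in WT (SD, n = 4), Aldoc 234 ± 28.4 and Slc1a2 165 ± 12, and the 4 WT libraries of these genes did not overlap with those of the next gene in the order. S100b followed with 84.2 ± 11.6, then Slc1a3 with 61.1 ± 4.82 and Gfap with 50.5 ± 16.6, of which the last pair overlapped. Aqp4 (27.7 ± 4.88), Gjb6 (20.7 ± 4.58) and Gja1 (19.0 ± 1.84) each overlapped with their neighbour. Aldh1l1 was lowest with 10.8 ± 1.52 RPKM and below every WT value of Gja1. The order of the KO means was the same for all 10 genes, from Glul with 432 ± 19.3 to Aldh1l1 with 11.6 ± 0.716 RPKM. Glul lay above 99.7% of the protein-coding genes tested and Aldh1l1 above 64.1%.

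In footprints Aldoc came first and Aldh1l1 moved up the order. Aldoc had 203 ± 8.23 RPKM of footprints in WT (SD, n = 4), Glul 164 ± 19.0 and Slc1a2 112 ± 12.7, again with no overlap between neighbours. Slc1a3 (29.0 ± 0.972) and S100b (26.3 ± 3.24) overlapped with each other. The other 5 genes, Aldh1l1, Gfap, Aqp4, Gja1 and Gjb6, had WT means of 11.9 to 13.1 RPKM, and each overlapped with the next. Aldh1l1 was thus 10th by mRNA and 6th by footprints per length in both genotypes.

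The mRNA of all 10 genes overlapped between WT and KO. None passed the test among 13058 genes (edgeR quasi-likelihood test, Benjamini-Hochberg adjusted p under 0.05, 0 members called, 0 at an unadjusted p under 0.05). Over all genes the share called was 0%, and 10.5% had an unadjusted p under 0.05. DESeq2 called 0 of the 10, against 0.94% of the genes to which it gave an adjusted p. Of the 10 log2 fold changes 6 were below 0 and 4 above, from −0.21 to 0.10 with a median of −0.05, beside a median of −0.01 and 51.4% below 0 over all genes. For 9 of the 10 the 95% interval lay within a 1.5-fold change in either direction, and Gfap was the exception. In bulk tissue fewer astrocytes and less RNA per astrocyte cannot be told apart.

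Among the glutamate genes, Slc1a2 had mRNA levels of 2240.4, 2037, 2408 and 2099 CPM in the WT libraries, numbered 1 to 4, and 2329, 2159, 2635 and 2252 in the KO libraries in the same order. KO library 3 was above all WT libraries and the other 3 lay among them. KO over WT gave a log2 fold change of 0.09 ± 0.08 (SE over 4 against 4 libraries, edgeR adjusted p = 0.716, 95% interval −0.08 to 0.27). Slc1a3 had 559.9, 563, 519.7 and 471 CPM in WT and 481, 434, 554 and 512 in KO. Its lowest value was in KO library 2 and its 2 highest in WT libraries 1 and 2, with a change of −0.09 ± 0.09 (interval −0.29 to 0.10) that was −7.7e-05 without those 2 WT libraries. Glul had 1217, 1095, 1614 and 1451 CPM in WT and 1479.7, 1485, 1339.9 and 1445 in KO. All 4 KO libraries lay inside the WT range, whose low end was WT libraries 1 and 2, and the change was 0.10 ± 0.11 (interval −0.15 to 0.34). Without them the Glul change was −0.09.

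Aqp4, the water channel, had 175, 133, 149 and 114 CPM of mRNA in WT and 108, 143, 125 and 159 in KO. WT library 1 was highest and KO library 1 lowest, with a log2 fold change of −0.09 ± 0.14 (SE, interval −0.41 to 0.22). Gja1 had 215, 176, 214 and 185 CPM in WT and 171, 209, 196 and 206 in KO. Its groups spanned nearly the same range, and its change was the smallest of the 10 at −0.02 ± 0.09 (interval −0.21 to 0.18). Gjb6 had 60.2, 42.3, 71.3 and 50.4 CPM in WT and 48.8, 59.9, 56.6 and 46.4 in KO, with all KO libraries inside the WT range and a change of −0.08 ± 0.15 (interval −0.41 to 0.25).

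Gfap, the filament gene, spread most. It had 293, 157, 261 and 153 CPM of mRNA in WT and 126, 172, 246 and 206 in KO, so that the highest library was 1.91 times the lowest within WT and 1.95 times within KO. The WT mean of 216 ± 71.5 and the KO mean of 187 ± 50.9 (SD, n = 4) differed by less than either SD, with a log2 fold change of −0.21 ± 0.24 (SE, interval −0.74 to 0.33, edgeR adjusted p = 0.810). The change was −0.02 without WT library 1 and −0.36 without KO library 3. S100b had the lowest unadjusted p of the 10. It had 152, 122, 122 and 110.5 CPM in WT and 113, 115, 106 and 118 in KO, a change of −0.16 ± 0.09 (edgeR adjusted p = 0.564, interval −0.37 to 0.04). WT library 1 lay apart from the other 7 S100b values, and without it the change was −0.06.

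Aldoc had 820.0, 637, 784 and 844 CPM of mRNA in WT and 818, 839, 772 and 825 in KO. WT library 2 was low and the KO libraries all lay inside the WT range, with a log2 fold change of 0.08 ± 0.09 (SE, interval −0.12 to 0.27). Aldh1l1 had 46.1, 41.9, 58.0 and 51.0 CPM in WT and 52.0, 56.9, 50.9 and 49.5 in KO, a change of 0.09 ± 0.10 (interval −0.13 to 0.31). As for Glul, the low values were WT libraries 1 and 2, and without them the Aldh1l1 change was −0.06.

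**Figure D1:**
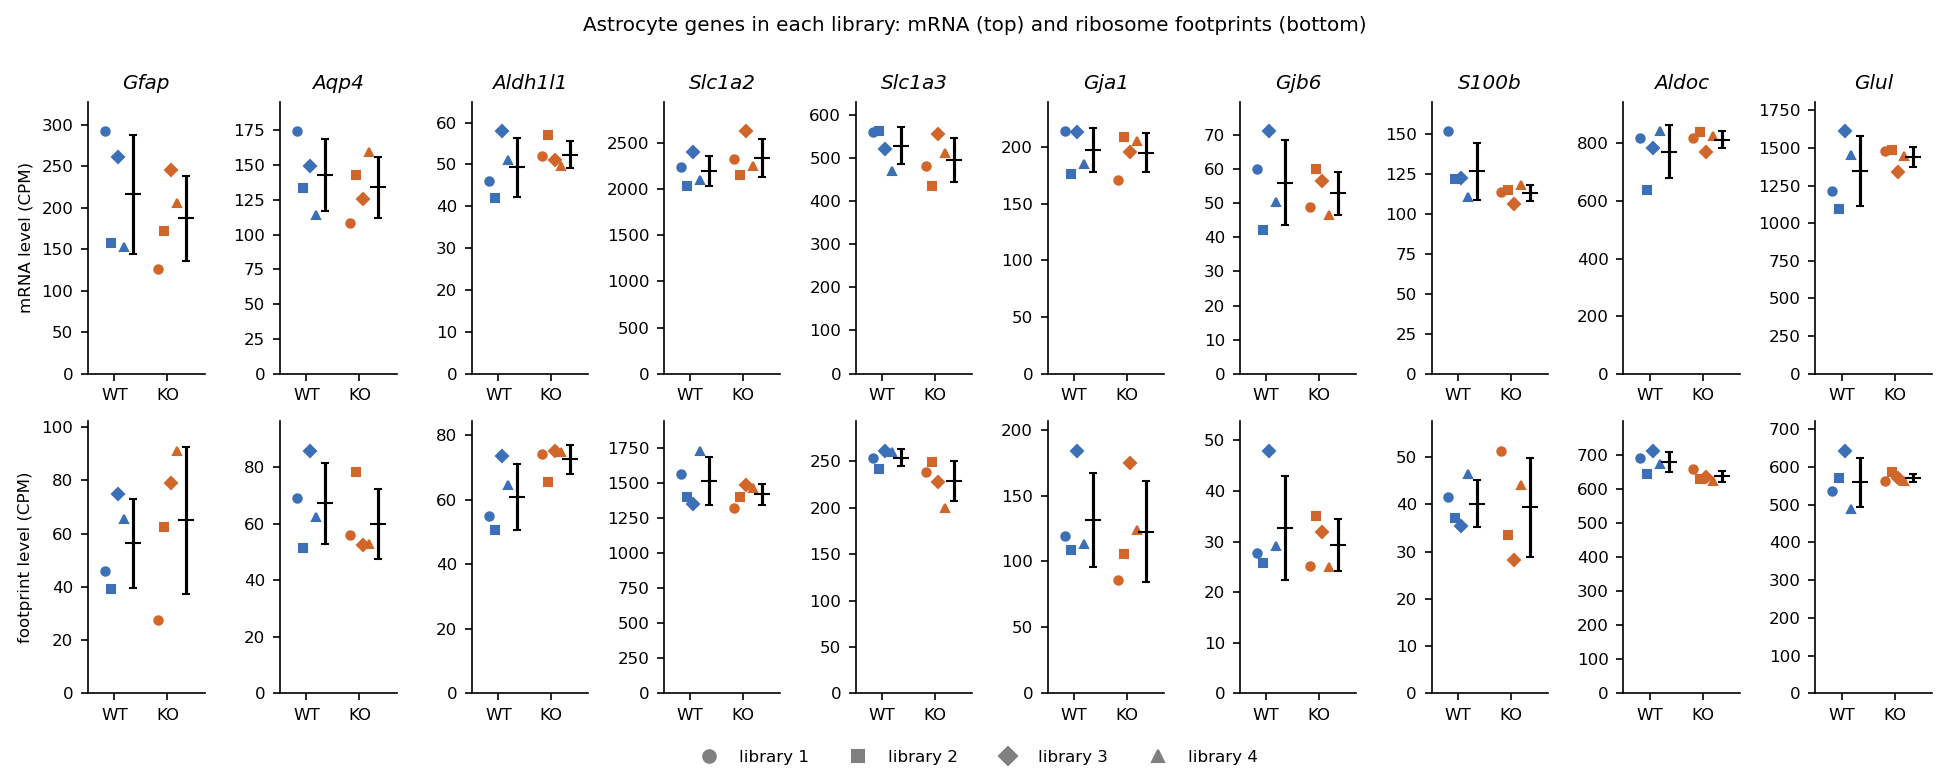
Levels of the 10 astrocyte genes in CPM (y axes start at 0, 1 scale per panel) in mRNA (top) and footprint (bottom) libraries, WT in blue and KO in orange, with the library number as the marker shape and bars for mean ± SD (n = 4). The groups overlap in all 20 panels, Gfap mRNA runs from 126 to 293 CPM, and the KO footprint values of Aldoc and Glul lie close together.

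Footprints on the 10 genes also overlapped between the groups. Counts were lower here, from 15 reads on S100b in KO library 3 to 4703 on Slc1a2 in WT library 4. None passed edgeR among 8476 genes (adjusted p from 0.881 to 0.994, 0 members at an unadjusted p under 0.05), where the share called over all genes was 0% and 5.52% had an unadjusted p under 0.05. DESeq2 called 0 of the 10 and 0.0472% of all genes. The groups did not overlap for 3.61% of all genes and for 0 of the 10. Of the 10 changes 7 were below 0, beside 50.4% of all genes, with a median log2 fold change of −0.09 beside −0.0038 over all genes. Without WT library 3, 4 of the 10 were below 0 and the median was 0.055. The 95% interval stayed within 1.5-fold for 6 genes and within 2-fold for all 10, and the 4 wider ones were Gfap, Aldh1l1, Gja1 and Gjb6.

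Aldh1l1 had the lowest footprint p of the 10, with 54.9, 50.7, 73.4 and 64.6 CPM in WT and 74.1, 65.6, 75.3 and 74.9 in KO. KO libraries 1, 3 and 4 were above every WT library and KO library 2 lay among them. The footprint change of Aldh1l1 came to 0.24 ± 0.16 on the log2 scale (SE, edgeR adjusted p = 0.881, interval −0.11 to 0.59). Slc1a3 and Aldoc had the reverse arrangement, with 3 of 4 KO libraries below every WT library. Slc1a3 had 253, 241, 261 and 259.7 CPM of footprints in WT and 238, 249.5, 228 and 199.8 in KO, a change of −0.15 ± 0.15 (adjusted p = 0.931 by edgeR). Aldoc had 689, 643, 712 and 672 CPM in WT and 657, 629.7, 634 and 622 in KO, a change of −0.09 ± 0.17 (adjusted p = 0.967 by edgeR). Such an arrangement was common in the table, since at least 3 KO libraries lay above the highest WT library in 8.84% of the footprint genes tested and below the lowest in 10.3%.

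Slc1a2, with the most footprint reads of the 10, had 1569.6, 1404, 1354 and 1735 CPM in WT and 1322, 1405, 1492 and 1468 in KO (−0.09 ± 0.21). Glul footprints were 536, 569.7, 643 and 488 CPM in WT and 563, 585, 570.0 and 562 in KO (0.03 ± 0.17), and the KO values of this gene lay inside the WT range. Gfap was again the widest, with 46.0, 39.2, 74.9 and 65.7 CPM in WT and 27.5, 62.5, 79.0 and 91.3 in KO. KO libraries held both the lowest and the 2 highest of these Gfap values, which rest on 23, 121, 42 and 95 reads in KO libraries 1 to 4. Its footprint change was 0.20 ± 0.30. Leaving out KO library 4 gave −0.01, and leaving out KO library 1 gave 0.45.

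The highest WT footprint value was in library 3 for 8 of the 10 genes, all but Slc1a2 and S100b, and thus also for the water channel and both connexins. Gja1 had 119, 109, 184 and 114 CPM in WT and 86.1, 106, 175 and 124 in KO, where library 3 was high too. Gjb6 had 27.7, 25.8, 48.0 and 29.1 in WT and 25.1, 35.1, 32.0 and 25.0 in KO, and Aqp4 69.3, 51.6, 86.0 and 62.3 and 56.2, 78.5, 52.7 and 52.8. The changes were −0.12 ± 0.23, −0.15 ± 0.25 and −0.14 ± 0.20 in this order, and without WT library 3 they were 0.10, 0.11 and 0.01. S100b had 41.6, 37.0, 35.5 and 46.5 CPM in WT and 51.4, 33.6, 28.2 and 44.2 in KO, with KO libraries at both ends (−0.02 ± 0.21).

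**Figure D2:**
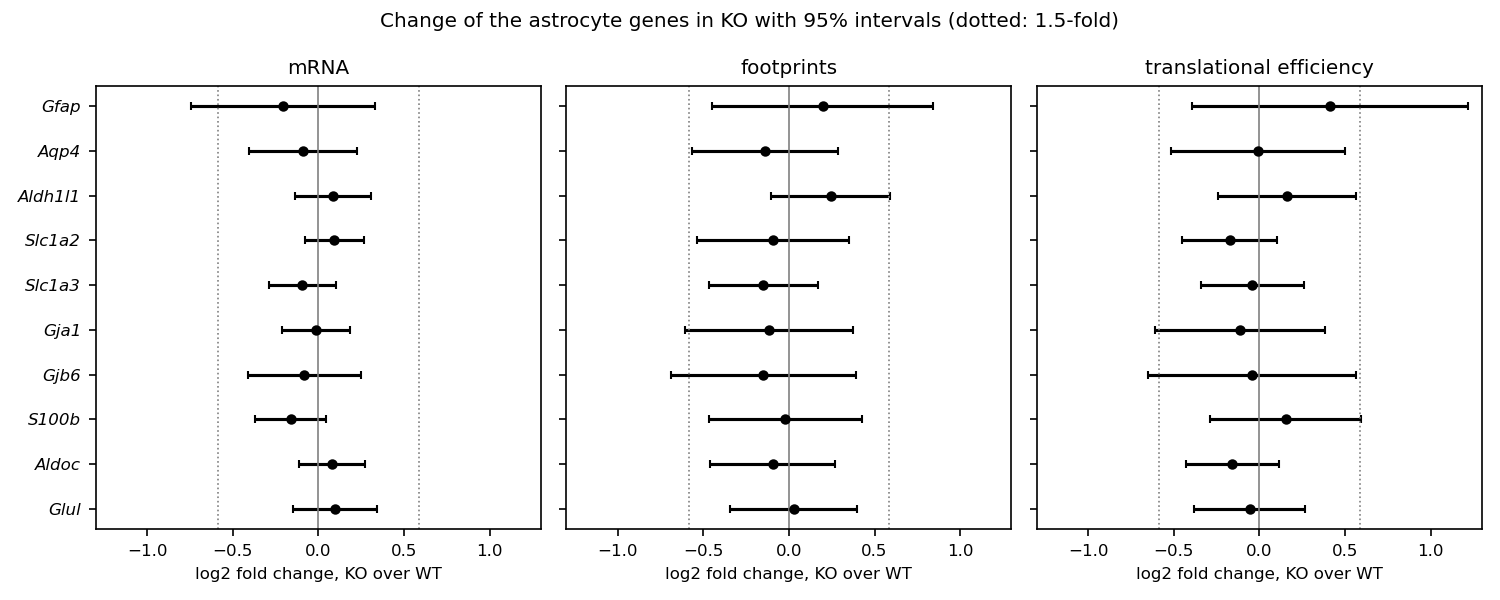
Log2 fold change of KO over WT (x axis) for each astrocyte gene in mRNA, footprints and translational efficiency, as points with 95% intervals from the edgeR fits (n = 4 libraries per group and kind). Every interval includes 0, and dotted lines mark a 1.5-fold change, which 9 of 10 mRNA intervals and 6 of 10 footprint intervals do not reach.

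The genes differed from each other in footprints per mRNA. The log2 ratio of footprint to mRNA CPM was taken in each pair of libraries of 1 name and set against the median of the 9673 genes tested. The libraries were joined by name only, and over genes their deviations from the group means correlated at r = −0.10 to 0.17. Single ratios, their SDs and their overlaps depend on this joining, and other joinings were not tried. Both levels of a gene are read over the same gene model, so length cancels, while footprints lie on the coding sequence and a gene with long untranslated ends can have a lower ratio. Aldh1l1 stood at 1.34, 1.37, 1.43 and 1.46 in WT and 1.68, 1.31, 1.75 and 1.74 in KO, on the log2 scale, and every one of these 8 values was above every value of the other 9 genes. The WT mean of Aldh1l1 was 2.64 times that of the median gene and above 96.0% of the genes tested. Aldoc came next, with a WT mean of 0.93 ± 0.14 (SD, n = 4) and above 88.2% of genes.

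Gfap was at the other end, with −1.57, −0.89, −0.70 and −0.10 in WT and −1.0, −0.34, −0.44 and −0.02 in KO. In this joining by name all 8 values were below the median gene. S100b was second lowest, with a WT mean of −0.54 ± 0.29. The transporters did not overlap within either genotype, though narrowly in WT, where Slc1a2 was 0.268 at its lowest and Slc1a3 0.263 at its highest. Across genotypes they overlapped, with 0.312 for Slc1a3 in KO pair 2. Their WT means were 0.56 ± 0.24 for Slc1a2 and 0.05 ± 0.17 for Slc1a3. The connexins overlapped, with 0.49 ± 0.28 for Gja1 and 0.31 ± 0.23 for Gjb6 in WT. Aqp4 and Glul were near the median gene, with WT means of 0.02 ± 0.31 and −0.15 ± 0.26.

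Translational efficiency, the footprint change relative to the mRNA change, was not shown to differ between WT and KO for any of the 10 genes. None passed edgeR's test of the interaction of genotype and library kind among 9673 genes (adjusted p from 0.667 to 0.996, 0 members at an unadjusted p under 0.05). The share called over all genes was 0%, with 10.8% at an unadjusted p under 0.05, and DESeq2 called 0 of the 10 and 1.55% of all genes. The groups did not overlap for 4.52% of all genes and 0 of the 10. Of the 10 changes 7 were below 0, beside 50% of all genes, and 4 were without WT library 3. Gfap had the largest value, 0.41 ± 0.39 on the log2 scale (SE, n = 4 each, edgeR adjusted p = 0.744, interval −0.40 to 1.22), and it was 0.03 without WT libraries 1 and 2. Slc1a2 (−0.17 ± 0.13) and Aldoc (−0.16 ± 0.13) had the lowest p of the 10. Aldh1l1, whose ratio was the highest, had 0.16 ± 0.19, with 3 of 4 KO pairs above every WT pair, an arrangement that 10.7% of the genes tested had. Such counts of pairs and of groups without overlap depend on the joining by name, which the edgeR test does not use. The part of the differing region markers of mRNA and footprint libraries in these values was not tested. The other 6 genes ran from −0.11 for Gja1 to 0.15 for S100b. The 95% interval lay within 1.5-fold for 6 of the 10 (not Gfap, Gja1, Gjb6 and S100b) and within 2-fold for 9 (not Gfap).

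**Figure D3:**
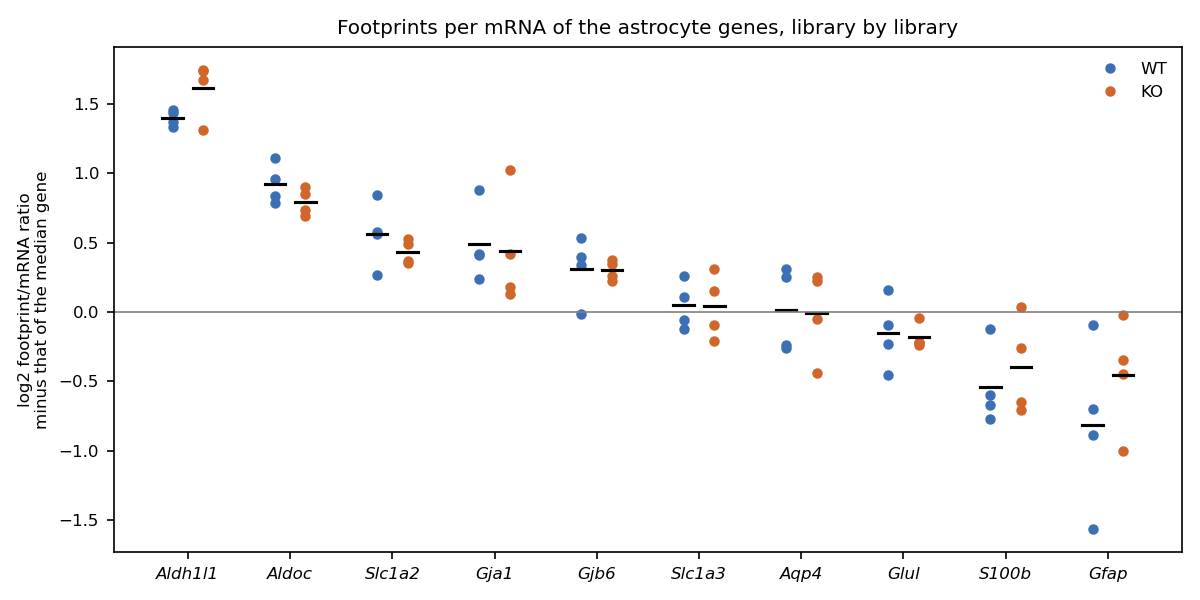
Log2 ratio of footprint to mRNA CPM minus that of the median gene in the same library pair (y axis) for each astrocyte gene, ordered by the WT mean, with 1 point per library pair (WT blue, KO orange) and a bar for each group mean (n = 4). Over the 8 pairs, joined by name only, Aldh1l1 lies between 1.31 and 1.75 and Gfap between −1.57 and −0.02.

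The spread between libraries of 1 genotype set the genes apart. In mRNA the within-group SD of Gfap was 0.45 on the log2 scale, larger than that of 92.9% of the genes tested, whose median was 0.15. Gjb6 (0.26) and Aqp4 (0.25) followed, and Slc1a2 had the smallest of the 10, 0.12. In footprints the SD of Gfap was 0.61, and that of Aldoc was 0.050, smaller than in all but 0.0118% of the 8476 genes (median 0.39). Genes with many reads have a smaller counting error, which these percentages do not take out. The edgeR SE of the Aldoc footprint change, 0.17, also draws on the spread of other genes.

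Some of the genes varied together across the 8 mRNA libraries. Over the 45 pairs of genes Pearson's r of log2 CPM had a median of 0.35 and ran from −0.65 to 0.94, with 33 pairs above 0. The 3 pairs above 0.8 were Aldh1l1 with Glul (r = 0.94, Spearman's rho = 0.98), Aqp4 with Gja1 (r = 0.83, rho = 0.86) and Gfap with Gja1 (r = 0.83, rho = 0.88). These values describe 8 libraries of 2 genotypes that share 1 scaling, and no test was made of them. How often pairs of other genes reach such values was not counted. With the 2 libraries farthest from the median left out they were 0.78, 0.67 and 0.66, and without WT libraries 1 and 2 they were 0.74, 0.91 and 0.78. In footprints the same pairs had r = 0.30, 0.26 and 0.71, so of the 3 only Gfap with Gja1 stayed above 0.5. Over all 45 pairs the footprint median was 0.13, and the highest was Aqp4 with Gjb6 (r = 0.81, against 0.36 in mRNA). Slc1a3 went against Glul (r = −0.65), Aldh1l1 (−0.65) and Aldoc (−0.61), and its highest mRNA values were in WT libraries 1 and 2, where those of Glul and Aldh1l1 were lowest.

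The bases before the transcript start are shown for the genes of the first and last of these pairs, to set side by side the promoters of genes that varied together. They come from RefSeq (GRCm38.p6, the build of mm10), matched by gene symbol for 9 of the 10 genes (10 windows, Aqp4 not among them). The RefSeq starts of Gfap, Aldh1l1, Slc1a2 and Aldoc lie inside the gene spans given above, so their windows are not the bases before the listed gene ends. Each line gives the 250 bases before the start, 5′ to 3′ on the gene's strand, and capitals mark a match to 1 of 4 motifs searched on both strands: the TATA box TATAAA, the Sp1 box GGGCGG, the nuclear factor I half-site TTGGCA and the STAT site TTCNNNGAA.
Aldh1l1, chr6:90550543-90550792 (+ strand): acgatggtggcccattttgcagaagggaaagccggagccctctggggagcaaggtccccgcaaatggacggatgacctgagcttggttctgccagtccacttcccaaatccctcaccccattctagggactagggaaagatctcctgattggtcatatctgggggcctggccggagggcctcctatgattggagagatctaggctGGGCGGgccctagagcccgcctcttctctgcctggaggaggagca
Glul, chr1:153899679-153899928 (+ strand): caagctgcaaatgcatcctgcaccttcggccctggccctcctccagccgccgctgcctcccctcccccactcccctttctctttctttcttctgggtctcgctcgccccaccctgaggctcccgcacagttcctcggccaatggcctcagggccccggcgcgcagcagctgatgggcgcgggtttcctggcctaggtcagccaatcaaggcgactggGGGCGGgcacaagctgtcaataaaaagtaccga
Gfap, chr11:102897201-102897450 (− strand): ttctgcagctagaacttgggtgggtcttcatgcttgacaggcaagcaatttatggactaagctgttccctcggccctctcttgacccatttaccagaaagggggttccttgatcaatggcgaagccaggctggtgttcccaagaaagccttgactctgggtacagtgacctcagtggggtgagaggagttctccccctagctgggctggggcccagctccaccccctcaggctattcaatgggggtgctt
Gja1, chr10:56377050-56377299 (+ strand): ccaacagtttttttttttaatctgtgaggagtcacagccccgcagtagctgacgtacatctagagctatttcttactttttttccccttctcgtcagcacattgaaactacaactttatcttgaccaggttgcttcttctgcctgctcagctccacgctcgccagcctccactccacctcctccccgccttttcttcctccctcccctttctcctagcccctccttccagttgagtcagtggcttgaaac
The Aldh1l1 and Glul windows each held 1 Sp1 box, 45 to 40 and 33 to 28 bases before the start, which overlapped with no other motif. The Gfap and Gja1 windows held none of the 4 motifs. Over all 32851 windows of this length the Sp1 box was found in 32.7%, the TATA box in 12.4%, the nuclear factor I half-site in 12.3% and the STAT site in 7.02%. The windows of the other genes were not printed, and among them S100b and Aldoc held the nuclear factor I half-site. Slc1a3 held a TATA box, an Sp1 box and a STAT site, Aldoc also an Sp1 box and, at its other start, 2 STAT sites, and Slc1a2 and Gjb6 none of the 4.

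**Figure D4:**
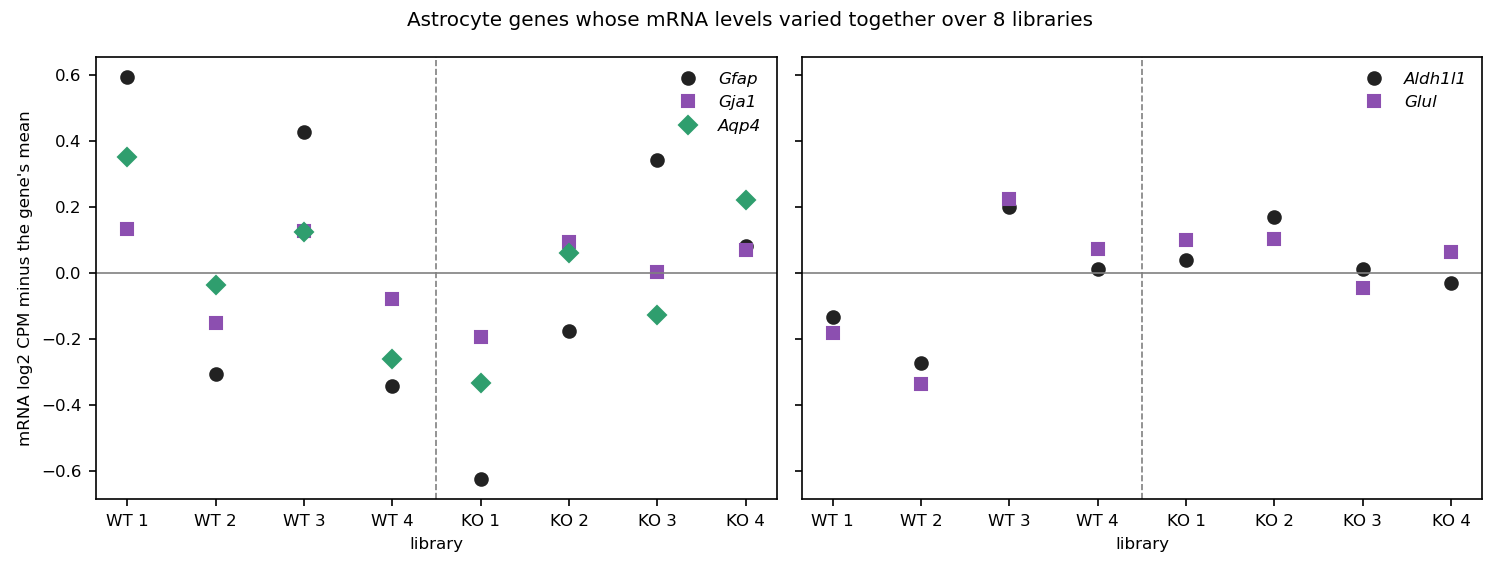
mRNA log2 CPM of each gene minus its mean over the 8 libraries (y axis) for Gfap, Gja1 and Aqp4 (left) and for Aldh1l1 and Glul (right), 1 column per library with WT left and KO right of the dashed line. Gfap ranges from −0.62 in KO library 1 to 0.59 in WT library 1, and Aldh1l1 and Glul are both lowest in WT library 2.

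Outside the 10, the gene most like each in mRNA was named by the highest r over the same 8 libraries among 13058 genes, as a description. Aqp4 was closest to Slc39a12 (r = 0.97, rho = 0.90), a zinc transporter gene of astrocytes, and S100b to Clu (r = 0.95, rho = 0.74), which encodes the secreted chaperone clusterin. Gja1 was closest to the growth factor gene Igf1 (r = 0.98, rho = 0.98) and Aldh1l1 to Park7 (r = 0.99, rho = 0.93). Glul was closest to Mlycd (r = 0.99, rho = 0.81), Slc1a2 to Med24 (r = 0.97, rho = 0.93) and Slc1a3 to Peak1 (r = 0.98, rho = 0.98). Aldoc was closest to Mroh1 (r = 0.95, rho = 0.69) and Gjb6 to the histone gene Hist1h1c (r = 0.93, rho = 0.88). Gfap was closest to Gm15501 (r = 0.97, rho = 0.95), a processed pseudogene, for which reads of its parent gene may be counted. An r picked as the highest of so many genes over 8 libraries is high in part by that choice.

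Of 128 further genes of astrocyte physiology, in 7 lists, none passed in any of the 3 comparisons. In mRNA 113 were tested, with 17 (15%) at an unadjusted p under 0.05, 11 lower and 6 higher, beside 10.5% of all genes (5.22% lower and 5.32% higher), and a median log2 fold change of −0.04. DESeq2 called 1 of them in mRNA, Gjc3. In footprints 94 were tested and 6 (6.38%) had an unadjusted p under 0.05, beside 5.52% of all genes, 1 lower and 5 higher. The footprint medians of the lists ran from −0.25 over 8 reactive astrocyte genes tested to 0.01 over 11 genes of transmitter uptake and the glutamine cycle. For translational efficiency 106 were tested, 6 (5.66%) had an unadjusted p under 0.05 beside 10.8% of all genes, and DESeq2 called 1, Dbi.

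The list of potassium, water and ion balance held 13 tested genes with 0 at an unadjusted p under 0.05 in mRNA and a median of −0.0029. Among those with the lowest p were the scaffold protein gene Slc9a3r1 (−0.11 ± 0.07), Hepacam, an adhesion protein of astrocytes (−0.08 ± 0.07), and the potassium channel Kcnj16 (−0.14 ± 0.13). Transmitter uptake and the glutamine cycle had 12 tested genes, also with 0 in mRNA and a median of −0.03. Among those with the lowest p were the glycine transporter Slc6a9 (−0.17 ± 0.15) and the cystine transporter Slc7a11 (0.14 ± 0.14).

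In the energy and lipid list 9 of 17 mRNA changes were below 0 (median −0.01), and 1 had an unadjusted p under 0.05. That was Dbi, which encodes an acyl-CoA binding protein, with 119 ± 16.9 CPM in the WT libraries against 94.1 ± 7.09 in the KO libraries (SD, n = 4), a change of −0.34 ± 0.10 (edgeR adjusted p = 0.337). Its footprints had the opposite sign, with 128 ± 22.8 and 168 ± 35.9 CPM, and its translational efficiency change was 0.78 ± 0.21, the lowest p of these lists (edgeR adjusted p = 0.209, DESeq2 adjusted p = 0.0231). Slc2a1, the glucose transporter (0.19 ± 0.10), Dio2, which activates thyroid hormone (0.26 ± 0.17), and the fatty acid carrier Fabp7 (−0.24 ± 0.18) followed in mRNA.

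Among 13 transcription factors 3 were lower and 3 higher in mRNA at an unadjusted p under 0.05 (median −0.09). Sox9, a glial fate factor, averaged 31.7 ± 2.72 CPM in WT against 24.5 ± 3.49 in KO (−0.37 ± 0.11), and Id3 had −0.30 ± 0.12. Rorb, which cortical neurons also express, had 0.55 ± 0.17 and Emx2, a factor of the dorsal forebrain, 0.48 ± 0.16. The connexin and pannexin list had 7 tested genes and a median of −0.05, with 2 lower at an unadjusted p under 0.05. Of these, the oligodendrocyte connexin Gjc3 had the lowest p (−0.50 ± 0.12, edgeR adjusted p = 0.337, DESeq2 adjusted p = 0.0245). Others of the list were Gjb1, also a connexin of oligodendrocytes (−0.32 ± 0.16), and Panx2 (0.19 ± 0.12).

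Surface and secreted proteins had 36 tested genes, 24 of them below 0 (median −0.04), with 3 lower and 2 higher at an unadjusted p under 0.05. The 4 with the lowest p were the metallothionein Mt3 (−0.33 ± 0.10), the protease inhibitor Timp4 (−0.28 ± 0.11), the vascular growth factor Vegfa (0.25 ± 0.11) and the synapse-maturing protein Chrdl1 (0.37 ± 0.16). Of 29 reactive astrocyte genes 15 were tested in mRNA, 12 of them below 0 (median −0.12), with 2 lower and 1 higher at an unadjusted p under 0.05. They were led by the filament gene Vim (−0.24 ± 0.09), then the adhesion protein gene Amigo2 (−0.50 ± 0.21), the lipid receptor S1pr3 (0.34 ± 0.15) and the complement inhibitor Serping1 (−0.35 ± 0.17).

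Summed markers of oligodendrocytes and neurons did not overlap between WT and KO in mRNA, while the summed astrocyte genes did. For scale, the groups did not overlap for 5.59% of single mRNA genes, among them 0 of the 10. The summed mRNA of the 10 astrocyte genes was 5003 to 6201 CPM in WT and 5672 to 6082 in KO. That of 10 oligodendrocyte markers was 7152 to 7815 in WT and 4618 to 6376 in KO, and that of 10 neuronal markers 8175 to 8442 and 9127 to 9716. In mRNA 10 of 10 oligodendrocyte markers had a change below 0 and 8 of 10 neuronal markers one above 0. As over all genes, 0 of either passed edgeR. At an unadjusted p under 0.05, 9 oligodendrocyte markers were lower, beside 5.22% of all genes. Of the neuronal markers 5 were higher at that p, beside 5.32% of all genes, and 1, Gad2, was lower (−0.45 ± 0.20). Footprint sums were 3171 to 3537 CPM in WT and 3101 to 3366 in KO for the astrocyte genes, and 2491 to 2988 and 1753 to 2190.0 for the oligodendrocyte markers. Neuronal footprint sums overlapped, at 4460.2 to 5813 in WT and 4314 to 4661 in KO, and 8 of 10 neuronal markers had a footprint change below 0 (median −0.12), against 2 of 10 in mRNA. Beside the values of Glul, S100b and the oligodendrocyte connexins, the part of oligodendrocytes was not tested.

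Ependyma and choroid plexus markers, of which 9 were listed and 8 tested, summed to 329 to 1166 CPM of mRNA in WT and 64.2 to 1178 in KO. Ttr alone had 273 to 1057 CPM in WT and 34.9 to 1090 in KO. All 8 tested had an mRNA change below 0, and 0 passed edgeR. Of them 4 had an unadjusted p under 0.05, beside 5.22% of all genes lower at that p. Cerebral cortex markers summed to 373 to 515 in WT and 483 to 725 in KO. All 8 had an mRNA change above 0, 5 of them at an unadjusted p under 0.05, beside 5.32% of all genes higher at that p. Microglial sums were 358 to 390.1 and 346 to 367, those of endothelium and pericytes 332 to 351 and 313 to 367, those of oligodendrocyte precursors 273 to 298 and 210.2 to 276, and 6 genes of Bergmann glia and cerebellum 59.1 to 100.4 and 36.8 to 45.7. In footprints 5 of the 7 cortex markers tested had a change below 0, and in translational efficiency all 8 did. The part of brain region in the spread of the astrocyte genes was not tested.

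**Figure D5:**
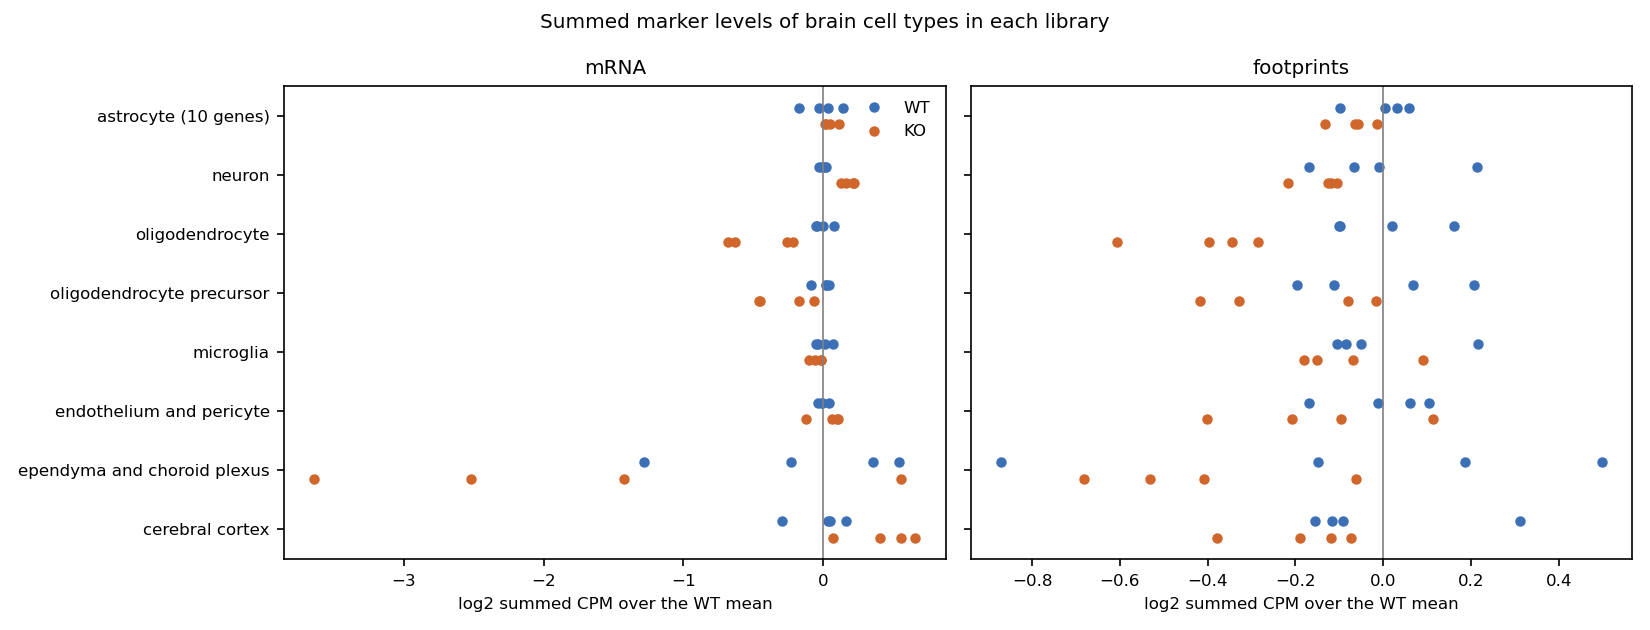
Summed CPM of marker genes per library over the WT mean of the same list, on a log2 axis, for mRNA (left) and footprints (right, with a narrower axis), WT in blue and KO in orange (4 libraries each). The astrocyte sums overlap in both panels, the oligodendrocyte sums of KO lie below those of WT in both, and of the lists drawn (hypothalamic and cerebellar markers are left out) the ependyma and choroid plexus sums spread most.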

How the data were processed

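Brain tissue of WT and Nsun5 KO mice was profiled as 8 footprint and 8 mRNA libraries. Reads per gene are deposited as raw counts, integers whose totals differ between columns. The authors' RPKM tables scale these counts by gene length and by 1 library size per column, 0.687 to 1.54 times the total, per the file headers and the values. TopHat2 and mm10 are named per the submitters' processing notes, and the counter and annotation are not given in the sources used here.

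Counts were fitted with edgeR 4.0.16 (R 4.3.3) on TMM sizes by the quasi-likelihood test, KO against WT, over all genes whose mean RPKM reached 1 in mRNA, that passed filterByExpr with a minimum count of 10 in footprints, or whose mean RPKM reached 1 in both kinds for translational efficiency (the interaction term). The threshold was a Benjamini-Hochberg adjusted p under 0.05. CPM use the TMM library size, log2 CPM had a prior count of 2, and the footprint to mRNA ratio an offset of 0.5 CPM. Intervals are 95%.

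Tested on simulated counts with 4 libraries a group, 57% of 1.5-fold and 98% of 3-fold changes were recovered in mRNA, 3% and 74.2% in footprints, and 8% and 83% in translational efficiency. False calls were 3.12%, 6.25% and 16.5% of the calls. The simulated translational efficiency test held 7880 genes that also passed the footprint filter, fewer than the 9673 tested. No simulated library was made to stand apart, so these shares need not hold for all genes tested. Same-number WT and KO libraries deviated from their group means with correlations of −0.24 to 0.03 in mRNA and −0.25 to 0.07 in footprints, so the numbers were not taken as pairs. For the mRNA and footprint library of 1 name they were −0.10 to 0.17. The alternatives were DESeq2 1.42.0, limma 3.58.1 fitted to log2 RPKM (pseudocount 0.1 or 1), other scaling, filters and gene classes, a replicate block, and leaving out libraries. The 10 genes, the lists and the alternatives were chosen with earlier results of these data known. Named were the 10 genes, up to 4 genes per list with the lowest mRNA p, the closest gene to each of the 10, genes past the threshold, and markers beside a result. Some genes that this rule names are not reported here. Motifs and printed promoters were chosen after the values were seen. A further listed name, Ppap2b, is an older symbol of Plpp3 and matched no row.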

Additional observations from a re-analysis of the deposited data

Results flagged for a closer look

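In 4 of the 40 groups of 4 libraries tested, 1 library lay far from the other 3 by the gap to its nearest neighbour relative to the range. Chance alone gives such a gap in about 1 in 20 groups. All 4 were footprint levels. KO library 2 had 78.5 CPM of Aqp4 against 52.7 to 56.2 in the other KO libraries, and 65.6 CPM of Aldh1l1 against 74.1 to 75.3. WT library 3 had 184 CPM of Gja1 against 109 to 119 in the other WT libraries, and 48.0 CPM of Gjb6 against 25.8 to 29.1.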

How the results depend on the processing

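None of the 10 astrocyte genes was called in mRNA, footprints or translational efficiency under any alternative run, where their lowest adjusted p was 0.382. Over all genes the count called was 0 in each comparison with edgeR. Without the filter on low genes it was 24 in mRNA, 86 in footprints and 2 in translational efficiency, and with DESeq2 it was 87, 4 and 150. Among nuclear protein-coding genes alone 2 were called in footprints. Leaving out 1 library gave 0 to 2 calls in mRNA (2 without KO library 4) and 0 to 4 in translational efficiency (1 without WT library 3, 1 without WT library 4 and 4 without KO library 2). With the replicate block 1 gene was called in translational efficiency, and 5 with a replicate block by library name, an alternative chosen after seeing the data. The block changed no other call. Small fold changes turned sign, and the cause was not tested. Gja1 mRNA was 0.0018 without the filter and 0.0023 and 0.0022 by limma with a pseudocount of 0.1 and 1, Glul footprints were −0.016 without the filter, and Aqp4 translational efficiency was 0.0042 with RLE scaling. Without WT libraries 1 and 2 the mRNA changes were 0.027 for Aqp4, −0.059 for Aldh1l1, −0.0011 for Aldoc and −0.093 for Glul, the footprint change of Gfap was −0.12, and the translational efficiency changes were −0.011 for S100b and 0.11 for Glul. With 1 library left out, the mRNA changes that turned ran over −0.19 to 0.021 for Aqp4, −0.066 to 0.044 for Gja1, −0.20 to 0.053 for Gjb6 and −0.0045 to 0.13 for Aldoc. In footprints they ran over −0.013 to 0.45 for Gfap, −0.31 to 0.011 for Aqp4, −0.31 to 0.10 for Gja1, −0.27 to 0.11 for Gjb6, −0.16 to 0.090 for S100b and −0.022 to 0.11 for Glul, and in translational efficiency over −0.17 to 0.15 for Aqp4, −0.14 to 0.030 for Slc1a3, −0.28 to 0.058 for Gja1, −0.14 to 0.073 for Gjb6 and −0.15 to 0.038 for Glul. The median mRNA change of the 10 genes ran from −0.08 to 0.04 with 1 library left out. That in footprints ran from −0.12 to 0.055 and that in translational efficiency from −0.09 to 0.07. In mRNA the medians of 4 of the 7 wider lists also crossed 0 (transmitter uptake, ion balance, connexins, and energy and lipids). Without WT libraries 1 and 2 the connexin mRNA median was 0.04. The 10 genes had 15 to 4703 footprint reads per gene and library, and the standard errors of their changes were 0.15 to 0.30 on the log2 scale in footprints and 0.08 to 0.24 in mRNA. The part of depth in this was not tested.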
